A study of Drosophila melanogaster with 4 samples.

Results

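Single small RNA sequences were compared between an oxidized and a not oxidized library made from heads of 3-day-old flies. The sequences described are those with at least 100 reads in both libraries together, 706 of the 3993 distinct sequences found in the pair and of 5550 in the whole series. Of these, 704 could be placed in 1 miRNA arm, the mature product of one side of a hairpin, and 2 fitted more than 1 arm and were left out. The 704 sequences came from 160 arms, with 1 to 17 sequences each. They are isoforms, that is, forms of the same arm that differ in where they begin or end.

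The study sequenced head RNA of wild-type male Drosophila melanogaster of genotype 5905, aged 3 or 30 days, with or without oxidation and β-elimination of the total RNA. Each of the 4 groups is 1 library, so no difference has a replicate check, no p-value is given, and the comparison is one between these libraries and not between the conditions. The oxidized and not oxidized libraries share strain, sex, tissue and age, and the treatment of the RNA is the difference the labels give. The age of the 3-day oxidized library follows its title and description; its age characteristic reads 30d, and that of a 30-day library reads 3d. The labels do not say how many flies were pooled.

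Periodate oxidation followed by β-elimination removes the last nucleotide of an RNA whose 3′ end carries free hydroxyls and leaves an end that ligates poorly. RNAs with a 2′-O-methyl group on the last ribose are spared, so they take a larger share of an oxidized library. In flies the methyltransferase Hen1 adds that group to small RNAs held by the Argonaute protein AGO2, whereas most miRNA guide strands are held by AGO1 and stay unmethylated. Trimming by the 3′-to-5′ exonuclease Nibbler shortens some arms, with miR-34-5p as the standard example. A shift of the 5′ end moves the seed, bases 2 to 8, which pairs with target messages, and a shift of the 3′ end leaves the seed as it is.

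The deposited counts summed to 2091252 reads in the oxidized and 16112748 in the not oxidized library. The 706 sequences held 99.6% of the reads of the oxidized and 99.8% of those of the not oxidized library. A count of 0 allows up to 3 counts, which is 1.43 RPM (reads per 1000000 reads of the library) in the oxidized and 0.186 RPM in the not oxidized library. The tables hold no names, and arms were named by comparison with catalogue sequences recalled from memory; 131 of the 160 arms, with 647 of the 704 sequences, have a name. The tissue was checked against 5 arms known from the nervous system, miR-124-3p, miR-1000-5p, miR-957-3p, miR-210-3p and miR-276a-3p, which had between 964 and 54407 reads in the oxidized and between 17300 and 1973810 in the not oxidized library. The muscle arms miR-133-3p and miR-1-3p had 4584 and 56 reads in the oxidized library and 123748 and 777 in the not oxidized one. Of 6 listed testis arms, 4 were matched, and these had 0 to 3 reads in the oxidized and 2 to 36 in the not oxidized library.

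The sequences below are shown because the results turn on how these forms differed between the oxidized and the not oxidized library. They were read from the deposited tables, written with T for U, and the capitals mark the seed. The 12 arms have 17 different seeds among their printed forms, and no seed occurs in 2 of the arms. The number before nt is the length, and an offset gives the position of the first base against the usual start of the arm.
miR-34-5p, 18 nt: tGGCAGTGtggttagctg
miR-34-5p, 21 nt: tGGCAGTGtggttagctggtt
miR-306-5p, 17 nt: tCAGGTACttagtgact
miR-306-5p, 21 nt: tCAGGTACttagtgactctca
miR-125-5p, 21 nt: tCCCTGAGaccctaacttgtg
miR-125-5p, 22 nt: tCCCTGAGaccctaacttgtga
miR-275-5p, 22 nt: cGCGCTAAtcagtgaccggggc
miR-275-5p, 23 nt: cGCGCTAAtcagtgaccggggct
miR-305-5p, 21 nt: aTTGTACTtcatcaggtgctc
miR-305-5p, 24 nt: aTTGTACTtcatcaggtgctctgg
miR-263a-5p, 22 nt: aATGGCACtggaagaattcacg
miR-263a-5p, 24 nt: aATGGCACtggaagaattcacggg
bantam-3p, 17 nt: tGAGATCAttttgaaag
bantam-3p, 18 nt: tGAGATCAttttgaaagc
bantam-3p, 23 nt: tGAGATCAttttgaaagctgatt
miR-193-5p, offset 0, 22 nt: gGTTGGGAttttttagatcagc
miR-193-5p, offset 1, 21 nt: gTTGGGATtttttagatcagc
miR-193-5p, offset 2, 20 nt: tTGGGATTttttagatcagc
miR-981-5p, offset -1, 22 nt: tCGGGTTTcgttagcagcgggc
miR-981-5p, offset 0, 21 nt: cGGGTTTCgttagcagcgggc
miR-981-5p, offset 0, 22 nt: cGGGTTTCgttagcagcgggct
bantam-5p, offset 0, 23 nt: cCGGTTTTcgatttggtttgact
bantam-5p, offset 1, 22 nt: cGGTTTTCgatttggtttgact
miR-929-5p, offset -1, 22 nt: cAAATTGActctagtagggagt
miR-929-5p, offset 0, 21 nt: aAATTGACtctagtagggagt
miR-315-3p, 22 nt: cTTTCGAGcaataattgaaacc

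The hairpins of these arms lie, in the Ensembl BDGP6.54 annotation, at chr3R:10100936-10101034 on the plus strand for mir-34, chr2L:16698404-16698488 on the plus strand for mir-306, in an intron of grp, and chr2L:18472315-18472424 on the plus strand for mir-125, in an exon of the non-coding transcript of the let-7 complex. The hairpins mir-275 and mir-305 are neighbours, at chr2L:7425795-7425892 and chr2L:7425972-7426044 on the plus strand. The gene of miR-263a-5p, mir-bft, is at chr2L:11953410-11953503 on the minus strand, and that of both bantam arms, mir-ban, at chr3L:642208-642288 on the plus strand. The other hairpins are mir-193 at chr3L:21574014-21574121 and mir-315 at chr3L:18860971-18861054, both on the plus strand, mir-929 at chr3R:4295369-4295456 on the plus strand in an intron of cpx, and mir-981 at chrX:1788861-1788957 on the minus strand. These positions were found by gene name; the deposited tables carry none and rest on another build.

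Forms of the same arm often differed in how they stood after oxidation. Of the 704 sequences, 192 were at least 2-fold higher in RPM in the oxidized library, 27.3%, and 351 were at least 2-fold lower, 49.9%. The remaining 161 lay between, and the median log2 ratio of oxidized over not oxidized RPM was -0.98. At 0 reads were 7 sequences in the oxidized and none in the not oxidized library. The minimum is on the sum of both libraries, so 86 sequences with under 100 reads without oxidation reached it only with their oxidized reads, and 73 of these were among the 192. Sequences with 100 to 110 reads, 32 in number, had a median log2 ratio of 0.30, and the 36 sequences with 90 to 99 reads, just outside the minimum, one of -0.05.

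In some arms all abundant forms moved together. Ratios are given below as log2 values with exact 95% intervals for counting error. The 22-nt form of miR-315-3p had 20493 reads in the oxidized and 1393 in the not oxidized library, a log2 ratio of 6.82 (6.75 to 6.90), and it made 99.5% of its arm with oxidation and 99.3% without. The mix of forms in that arm was nearly the same in both libraries. The 21-nt form of miR-33-5p had 112417 reads in the oxidized and 220401 in the not oxidized library, 97.9% and 94.3% of its arm. Its log2 ratio was 1.97, beside 0.39 for the rarer 22-nt form, with 1699 and 9990 reads. miR-8-3p, the most abundant arm without oxidation, had a 23-nt form that made 85.8% of the arm with oxidation and 86.3% without.

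Other sequences parted from their own arm. Of the 122 arms with 2 or more sequences, 36 held both a sequence at least 2-fold higher and one at least 2-fold lower, 32 held higher but no lower ones, 50 held lower but no higher ones, and 4 held neither. The share of its arm that a sequence made was at least 2-fold larger with oxidation for 136 sequences and at least 2-fold smaller for 117, the 86 sequences with under 100 reads without oxidation included. Without those 86, the share was at least 2-fold larger for 57 and smaller for 43 sequences that begin with T. The counts were 19 and 27 for C, 11 and 27 for A, and 6 and 11 for G, so in that set smaller shares prevailed for all bases but T. With the 86 included, the counts were 75 and 46 for T, 33 and 32 for C, 16 and 27 for A, and 12 and 12 for G. The result for C and G thus depends on the minimum. Shares within an arm do not depend on how the libraries are scaled. Among the 78 arms with at least 500 reads in each library and at least 2 sequences, 13 had at least 1 sequence more than 2-fold above and 1 more than 2-fold below the arm's own ratio, counting sequences of at least 5% of the arm in 1 library. These were miR-306-5p, miR-125-5p, miR-275-5p, miR-276a/b-5p, miR-284-3p, miR-124-3p, miR-285-3p, miR-285-5p, miR-981-5p, miR-956-3p, miR-193-5p, miR-92b-3p and miR-988-3p. Asking at least 100 reads without oxidation of each form left 10 of 75 arms split in this way. In miR-124-3p, miR-92b-3p and miR-988-3p, the forms counted as above the arm all had under 100 reads without oxidation. Those forms reached the minimum only with their oxidized reads. The 5′ arms of mir-276a and mir-276b cannot be told apart and were counted as 1 arm.

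Short forms stood higher after oxidation than the arms they belong to. Sequences of 16 to 19 nt, 150 in 61 arms, had a median log2 ratio of 0.39, against -1.05 to -1.66 for the longer classes, and 62 of them were higher and 41 lower by at least 2-fold. Set against their own arm, their median was 0.78 above it, and that of single lengths was 1.07 at 16 nt, 1.81 at 17 nt and 0.60 at both 18 and 19 nt. At 20 nt the median was 0.08 above the arm, at 21 nt 0.03 above, at 22 nt -0.10, at 23 nt -0.20 and at 24 to 27 nt -0.21. Leaving out the sequences with under 100 reads without oxidation, the 120 remaining sequences of 16 to 19 nt were 0.62 above their arm. All sequences of 16 to 19 nt together made 1.22% of the reads of the 704 sequences in the oxidized and 0.714% in the not oxidized library, so the shift concerns a small part of the reads.

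**Figure D1:**
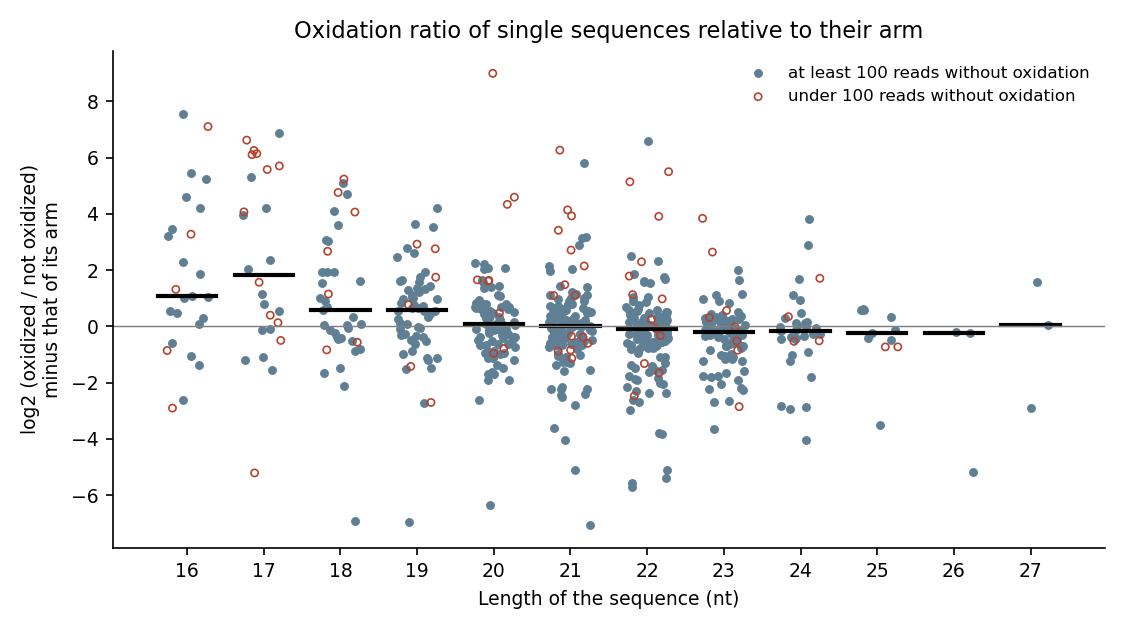
Each point is 1 sequence of an arm with 2 or more sequences. The vertical axis gives the sequence's log2 ratio of oxidized over not oxidized RPM minus the log2 ratio of its arm, the horizontal axis its length in nt, and black bars the median at each length. Medians lie at 1.07 and 1.81 for 16 and 17 nt and near 0 from 20 nt on, and the open points, with under 100 reads without oxidation, lie mostly above 0 at 16 to 18 nt.

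Arms were also sorted by their own ratio, which their abundant long forms set. In arms at least 2-fold lower, 241 of the 278 sequences of 20 to 27 nt were lower and 3 higher by at least 2-fold, with a median log2 ratio of -1.90. Of the 94 sequences of 16 to 19 nt from such arms, 34 were lower and 30 higher by the same measure, with a median of -0.33. Leaving out those with under 100 reads without oxidation, 33 of 81 were lower and 19 higher, with a median of -0.57. In arms at least 2-fold higher, medians were 2.88 for 37 sequences of 16 to 19 nt and 2.56 for 150 of 20 to 27 nt, and 1.92 and 1.76 with at least 100 reads without oxidation. The long forms of an arm lie where its sorting puts them, so the gap between short and long forms within a class is a description only. In 50 arms with sequences on both sides of 19 nt and at least 500 reads in each library, the share of 16 to 19 nt reads was larger with oxidation in 36 and smaller in 14. It was at least 2-fold larger in 27 and at least 2-fold smaller in 6, and the median share was 2.57% with and 0.753% without oxidation. With at least 100 reads without oxidation per form, it was larger in 33 of 45 arms and smaller in 12.

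bantam-3p, the guide strand of a growth-promoting miRNA, had short forms with very different ratios. Its 23-nt form had 21760 reads in the oxidized and 961539 in the not oxidized library, a log2 ratio of -2.52 (-2.54 to -2.50). Its 17-nt form had 698 reads in the oxidized and 221 in the not oxidized library, a log2 ratio of 4.60 (4.38 to 4.83). The 18-nt form, 1 base longer, had 362 reads in the oxidized and 8301 in the not oxidized library, a log2 ratio of -1.57 (-1.73 to -1.42). At 19 nt the ratio was again above 0, at 1.26 (0.98 to 1.54), with 140 reads in the oxidized and 449 in the not oxidized library. The step between 17 and 18 nt was -6.18, the most negative of all 3′ steps. The 17-nt form was still rare, with 1.65% of the arm's reads in the oxidized and 0.0140% in the not oxidized library.

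Arms became shorter more often than longer. Mean length, weighted by reads, was at least 0.25 nt shorter with oxidation in 21 of the 78 arms, 26.9%, and at least 0.25 nt longer in 6, 7.69%, with 51 arms within 0.25 nt. The median difference over the 78 arms was -0.07 nt. The counting intervals of all 27 differences leave out 0. Of the 21 shorter arms, 10 were lower and 8 higher in level by 2-fold or more, beside 38 lower and 28 higher of all 78, a like share.

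**Figure D2:**
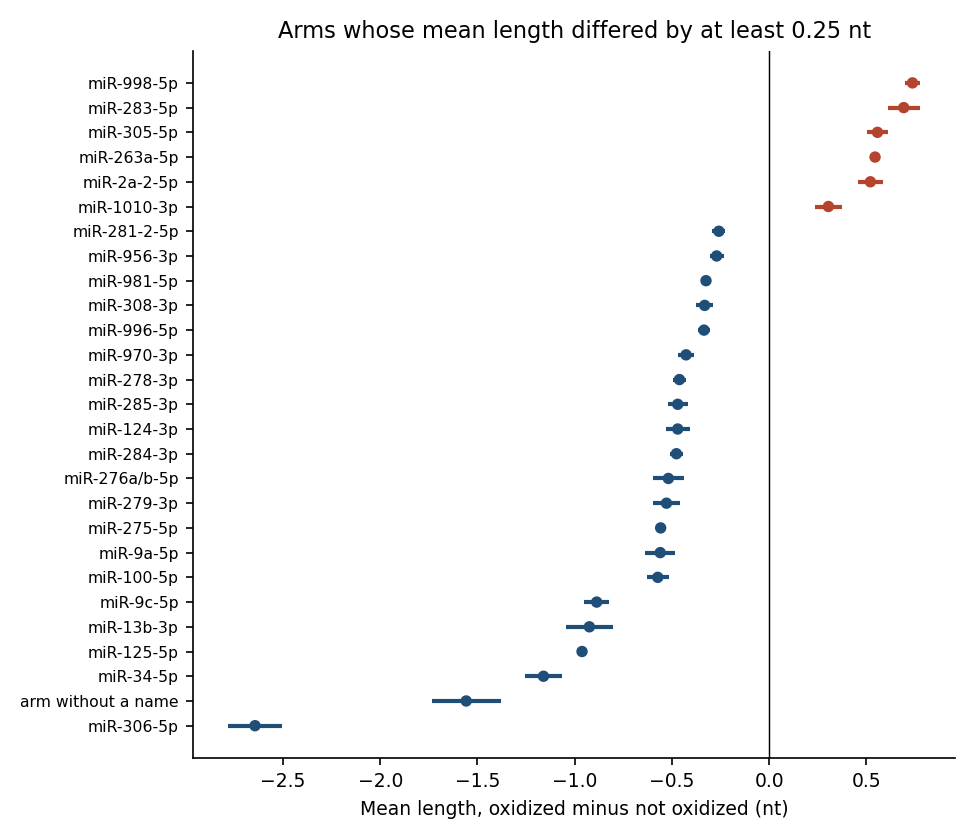
Difference in read-weighted mean length, oxidized minus not oxidized, in nt, for the 27 of 78 arms past 0.25 nt; bars are 95% intervals for counting error. miR-306-5p lies lowest at -2.64 nt and miR-998-5p highest at 0.74 nt, with 21 arms below 0 and 6 above.

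miR-306-5p, from a hairpin in an intron of the checkpoint kinase gene grp, shortened most, to a mean of 18.1 nt in the oxidized library, against 20.7 nt in the not oxidized one. Its 17-nt form had 339 reads in the oxidized and 84 in the not oxidized library, 40.2% (36.9 to 43.6) and 0.842% (0.672 to 1.04) of the arm. Its 16-nt form had 187 reads in the oxidized and 120 in the not oxidized library, 22.2% and 1.20% of the arm. The 21-nt form, which leads without oxidation, had 115 reads in the oxidized and 3973 in the not oxidized library, a log2 ratio of -2.16 (-2.45 to -1.90). The most abundant form was thus 17 nt with oxidation and 21 nt without. The 17-nt form, with 84 reads without oxidation, reached the minimum only with its oxidized reads.

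miR-34-5p, a miRNA linked to ageing and known for its 3′ trimming, had 7 forms that share 1 start. The 18-nt form had 767 reads in the oxidized and 4773 in the not oxidized library, 40.5% (38.3 to 42.8) and 13.2% (12.8 to 13.5) of the arm. The 21-nt form had 544 reads in the oxidized and 17975 in the not oxidized library, 28.8% (26.7 to 30.9) and 49.6% (49.1 to 50.2) of the arm. In RPM the 18-nt form was nearly level between the libraries, with a log2 ratio of 0.31 (0.20 to 0.42), while the forms of 21, 22, 23 and 24 nt lay at -2.10, -2.04, -1.44 and -1.74. The 16-nt form, with 77 reads in the oxidized and 135 in the not oxidized library, had the highest ratio of the arm, 2.14 (1.71 to 2.55).

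miR-125-5p, a member of the let-7 complex that controls developmental timing, differed at a single terminal base. The 21-nt form had 5732 reads in the oxidized and 3370 in the not oxidized library, a log2 ratio of 3.71 (3.65 to 3.77). The 22-nt form, with 1 more A, had 1742 reads in the oxidized and 11076 in the not oxidized library, a log2 ratio of 0.28 (0.20 to 0.35). The 24-nt form had 141 reads in the oxidized and 2433 in the not oxidized library, a log2 ratio of -1.16 (-1.42 to -0.92), and the ratios of the 25, 26 and 27-nt forms were -1.83, -3.49 and -1.21. The forms of 23 nt and more thus all lay below 0, and 26 and 27 nt had only 3 and 7 reads with oxidation. The 21-nt form made 72.5% of the arm with and 17.6% without oxidation.

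The other arms of the complex differed less in mean length. let-7-5p kept the 21-nt form in the lead with 55.5% of the arm in the oxidized and 64.9% in the not oxidized library, and its mean length differed by -0.04 nt. Its 19-nt form had 303 reads in the oxidized and 2914 in the not oxidized library, 9.57% and 3.53%. miR-100-5p had a 20-nt form in the lead in both libraries, with 767 reads in the oxidized and 1010 in the not oxidized one, 85.2% and 52.2% of the arm. Its 22-nt form had 83 reads in the oxidized and 648 in the not oxidized library, 9.22% and 33.5%. The arm was 0.57 nt shorter with oxidation.

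miR-275-5p, without oxidation the less abundant strand of its hairpin, had 2 forms that changed places. The 22-nt form, which ends in C, had 2488 reads in the oxidized and 298 in the not oxidized library, 76.7% and 20.9% of the arm. The 23-nt form, which ends in T, had 755 reads in the oxidized and 1127 in the not oxidized library, 23.3% and 79.1% of the arm. Both were higher in RPM after oxidation, with log2 ratios of 6.01 (5.83 to 6.19) and 2.37 (2.23 to 2.50).

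miR-9c-5p and miR-13b-3p also lost length; reads of miR-13b-3p may be shared with near-identical relatives. The mean of miR-9c-5p was 0.89 nt shorter, and its 16-nt form had 322 reads in the oxidized and 163 in the not oxidized library, 10.4% and 0.276% of the arm. The mean of miR-13b-3p was 0.92 nt shorter, and its 18-nt form had 101 reads in the oxidized and 66 in the not oxidized library, 13.4% and 0.357%. At 66 reads without oxidation, that form reached the minimum only with its oxidized reads. An arm without a name was 1.56 nt shorter. miR-124-3p, the main miRNA of neurons, had a 20-nt form of 64.4% with and 45.9% without oxidation, and a 21-nt form of 21.9% with and 47.0% without.

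Among the 6 longer arms, miR-263a-5p carried most reads. Its 24-nt form had 570108 reads in the oxidized and 84628 in the not oxidized library, a log2 ratio of 5.70 (5.69 to 5.71), and its 23-nt form 88441 and 29814 reads, a log2 ratio of 4.51 (4.50 to 4.53). The 22-nt form had 956 reads in the oxidized and 10391 in the not oxidized library, a log2 ratio of -0.50 (-0.59 to -0.40), and the 21-nt form 309 and 8603 reads, a log2 ratio of -1.85. The step between 22 and 23 nt was 5.01. The forms of 17 and 18 nt did not continue this: they had 269 and 281 reads in the oxidized library and 51 and 107 in the not oxidized one, with log2 ratios of 5.34 and 4.34. The 17-nt form, with 51 reads without oxidation, reached the minimum only with its oxidized reads.

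miR-305-5p, from the hairpin next to mir-275, stood out at a single length. The 24-nt form had 788 reads in the oxidized and 1072 in the not oxidized library, 22.6% and 1.61% of the arm. Its neighbours of 23 and 25 nt had 52 and 40 reads in the oxidized library and 507 and 490 in the not oxidized one. Only the 24-nt form of this arm was more than 2-fold higher, with a log2 ratio of 2.50 (2.37 to 2.64), against -1.82 for the leading 21-nt form, -0.34 at 23 nt and -0.67 at 25 nt. miR-283-5p had 448 reads of 23 nt in the oxidized and 2741 in the not oxidized library, 83.0% and 44.7% of the arm, and 51 and 2688 reads of 21 nt, 9.44% and 43.9%. miR-998-5p was 0.74 nt longer, with an 18-nt form of 0.130% with and 15.7% without oxidation.

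**Figure D3:**
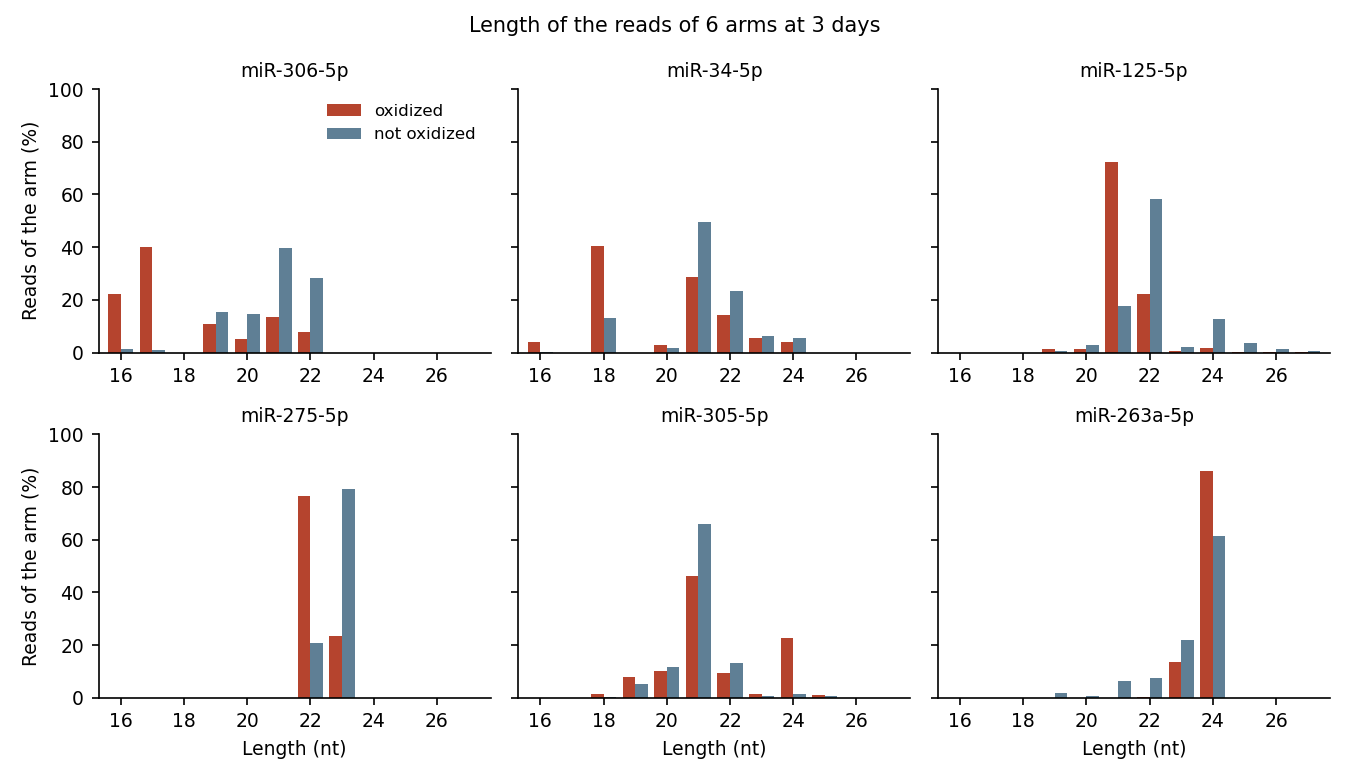
Share of an arm's reads, in %, at each length in nt, for the oxidized (left bars) and not oxidized (right bars) library. The short forms of miR-306-5p (17 nt, 40.2% against 0.842%) and miR-34-5p (18 nt, 40.5% against 13.2%), the 21-nt form of miR-125-5p and the 22-nt form of miR-275-5p took larger shares with oxidation, as did the 24-nt forms of miR-305-5p (22.6% against 1.61%) and miR-263a-5p (86.2% against 61.5%). The 17-nt form of miR-306-5p had under 100 reads without oxidation.

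The most abundant sequence of the arm differed between the libraries in 19 of the 78 arms. It was shorter with oxidation in 16 of these and longer in 2, and in 15 both forms shared the 5′ start. miR-317-3p, from the cluster of miR-34 and miR-277, was one of the 2 in which it was longer. Its 24-nt form had 13054 reads in the oxidized and 559356 in the not oxidized library, 38.6% and 34.2% of the arm, and its 21-nt form 10774 and 633466 reads, 31.8% and 38.7%. Every form of 18 nt and more was lower in RPM, with log2 ratios from -0.71 at 18 nt to -2.93 at 21 nt, and the 17-nt form, with 48 reads in the oxidized and 126 in the not oxidized library, had a log2 ratio of 1.55. miR-277-3p, of the same cluster, kept its 22-nt form in the lead with 63.3% of the arm in the oxidized and 58.7% in the not oxidized library.

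Pairs of sequences that share an arm and a 5′ end and differ by 1 base at the 3′ end were compared next. There were 421 such pairs in 114 arms, and the longer one had the lower log2 ratio in 262 and the higher in 159. The median step, longer minus shorter, was -0.31, with quartiles of -1.06 and 0.48. The longer form lay at least 2-fold below the shorter in 113 pairs, 26.8%, and at least 2-fold above it in 66, 15.7%. The median was -0.83 where the shorter had 16 to 19 nt and between -0.20 and -0.27 where it had 20 nt or more. In 367 pairs both forms had at least 100 reads without oxidation. Their median step was -0.30, with the longer form at least 2-fold below in 89 and above in 53. Medians by length, and those by terminal base below, also include forms that reached the minimum only with their oxidized reads.

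The median step differed with the terminal base. Where the added base was T, the median was -0.59 over 147 pairs, where it was C, -0.52 over 74, where it was G, -0.28 over 94, and where it was A, -0.17 over 106. Sorted by the base on which the shorter form ends, medians were -0.63 for C, -0.44 for A, -0.22 for G and -0.08 for T. Ranges were wide for each base, with quartiles on both sides of 0 for all 4 added bases. Against their own arm, sequences that end in C had a median log2 ratio of 0.32, those that end in T -0.11, and those that end in A or G -0.04 and -0.03.

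Differences at the 5′ end were larger. Of 110 pairs in 44 arms that share their 3′ end and differ by 1 base at the 5′ end, 63 differed by at least 2-fold, with the longer form above the shorter in 26, 23.6%, and below it in 37, 33.6%. The median size of the difference was 1.34 for the 5′ pairs, against 0.82 for the 3′ pairs. A difference of at least 8-fold was seen in 26 of the 110 pairs, 23.6%, against 26 of the 421, 6.18%. Among pairs in which both forms had at least 100 reads without oxidation, these shares were 20.5% of 88 and 4.63% of 367. Pairs of the same arm share sequences, so they are not independent of each other, and no test was made.

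**Figure D4:**
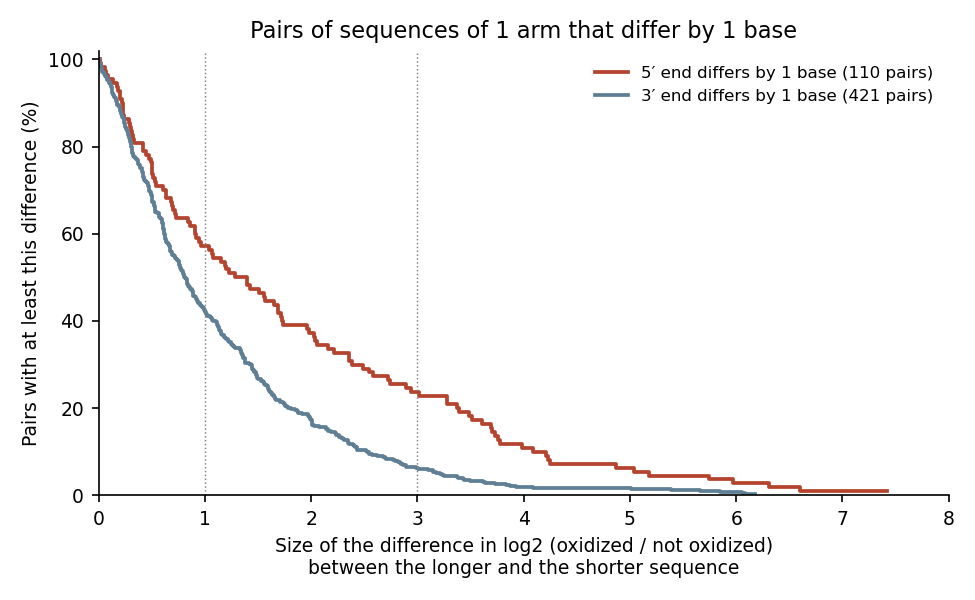
Share of pairs, in %, whose log2 ratios of oxidized over not oxidized RPM differ by at least the value on the horizontal axis, for 110 pairs that differ by 1 base at the 5′ end and 421 that differ by 1 base at the 3′ end. Dotted lines mark 2-fold and 8-fold; the 5′ pairs lie above the 3′ pairs at both, with 23.6% against 6.18% past 8-fold.

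The direction of a 5′ step was less uniform than its size, with 54 of 110 steps above 0 and 56 below. In 25 pairs the longer form began with C and the shorter did not, and the longer form had the higher ratio in 17, with a median of 0.54. In 25 other pairs the shorter began with C and the longer did not, and the longer had the lower ratio in 17, with a median of -0.45. These 2 sets came from 12 and 15 arms. Both hold forms with C that had under 100 reads without oxidation and reached the minimum only with their oxidized reads. Such forms had to be high there, and no count without them is given, so a preference for C cannot be read from these pairs. Over all sequences, those beginning with C had a median log2 ratio of 1.49, those with G 0.23, those with A -0.67 and those with T -1.48, and 74 of 141, 24 of 62, 37 of 138 and 57 of 363 were at least 2-fold higher. Among sequences with at least 100 reads without oxidation, the median for C was 0.07, with 45 of 111 higher, and that for T -1.61, with 35 of 335 higher. Set against their own arm, the medians of all sequences were 0.01 for C, -0.11 for G, -0.26 for A and 0.07 for T, nearer to 0 for each base than the medians of the plain ratios.

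Of the 78 arms, 45 had sequences with more than 1 start. The share of the start that led without oxidation was at least 5 percentage points smaller with oxidation in 9 arms, at least 5 points larger in 3, and within 5 points in 33. In 5 of the 9, miR-981-5p, miR-988-3p, miR-990-5p, miR-929-5p and miR-92b-3p, every form of the start that gained had under 100 reads without oxidation, so it reached the minimum only with its oxidized reads and had to be high there. With at least 100 reads without oxidation asked of each form, a setting chosen after seeing the data, the share was smaller in 4 arms, larger in 3 and within 5 points in 27 of 34. The 9 were miR-956-3p, miR-981-5p, miR-996-5p, miR-193-5p, miR-988-3p, miR-990-5p, miR-929-5p, miR-210-3p and miR-92b-3p, and the 3 were bantam-5p, miR-305-3p and miR-285-5p.

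miR-193-5p gained a start that was rare without oxidation. Starts at offsets 0 and 2 made 27.2% and 14.6% of the arm with oxidation, and 49.4% and 49.6% without. The start between them, at offset 1, had 1224 reads in the oxidized and 289 in the not oxidized library, 58.2% (56.0 to 60.3) and 1.05% (0.930 to 1.17) of the arm. Its 21-nt form had a log2 ratio of 5.03 (4.84 to 5.22), while the forms 1 base longer and 1 base shorter at the 5′ end had -1.57 (-1.70 to -1.45) and -2.39 (-2.59 to -2.20). All 3 end at the same base, so they differ at the 5′ end alone, and the steps, -6.60 and 7.42, are the most negative and the most positive of all 5′ steps.

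miR-981-5p combined a 5′ and a 3′ difference. The 22-nt form at offset 0, which ends in T, had 268 reads in the oxidized and 5275 in the not oxidized library, 14.6% and 94.8% of the arm. The 21-nt form, which lacks that T, had 672 reads in the oxidized and 230 in the not oxidized library, a log2 ratio of 4.49 (4.27 to 4.71). The form that adds a T at the 5′ end to this one had 895 reads in the oxidized and 60 in the not oxidized library, 48.8% (46.5 to 51.1) and 1.08% (0.824 to 1.39) of the arm, a log2 ratio of 6.84 (6.47 to 7.25). With 60 reads without oxidation, it too reached the minimum only with its oxidized reads. Both forms that end in C were thus higher and the one that ends in T lower, and the new leading form carries another seed.

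The arms miR-956-3p and miR-996-5p exchanged their leading starts. The downstream start of miR-956-3p had 426 reads in the oxidized and 336 in the not oxidized library, 73.7% and 22.02% of the arm, and the start 1 base upstream had 152 and 1190 reads, 26.3% and 78.0%. For miR-996-5p the downstream start had 2767 reads in the oxidized and 753 in the not oxidized library, 82.2% and 44.2%, and the start 1 base upstream 388 and 812 reads, 11.5% and 47.6%. In both arms all forms were level or higher in RPM with oxidation, and they differed in how much. The intervals of these shares do not overlap between the libraries.

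Forms that begin 1 or 2 bases away from the usual start gave several of the highest ratios of all. A miR-988-3p form at offset 2 had 168 reads in the oxidized and 4 in the not oxidized library, a log2 ratio of 8.34 (6.95 to 10.23), and made 29.6% and 0.385% of its arm. A miR-990-5p form at offset 2 had 118 and 4 reads, a log2 ratio of 7.83 (6.43 to 9.73), and made 22.1% and 0.0433% of its arm. miR-92b-3p forms at offsets 2 and 1 had 143 and 126 reads in the oxidized library and 6 and 10 in the not oxidized one, with log2 ratios of 7.52 (6.36 to 8.99) and 6.60 (5.67 to 7.70). These 4 forms, and the T-start of miR-981-5p given above, reached the minimum only with their oxidized reads. The other high ones were the 22-nt form of miR-315-3p, the 19-nt form of miR-995-3p at 6.48 (6.28 to 6.68) and the 21-nt form of miR-998-5p at 6.47 (6.27 to 6.67).

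bantam-5p, the passenger strand of bantam, kept its start more strictly after oxidation. Reads at offset 0 numbered 39434 in the oxidized and 18418 in the not oxidized library, 99.5% (99.4 to 99.5) and 88.1% (87.6 to 88.5) of the arm. The form at offset 1 had 135 reads in the oxidized and 2467 in the not oxidized library, 0.341% and 11.8%. It was lower in RPM with oxidation, with a log2 ratio of -1.25 (-1.507 to -0.996), beside 3.94 (3.91 to 3.97) for the 23-nt form that ends at the same base and begins 1 base earlier. Both begin with C.

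miR-929-5p, miR-285-5p and miR-210-3p differed in the same measure. A start with C at offset -1 of miR-929-5p had 293 reads in the oxidized and 92 in the not oxidized library, 17.5% and 1.24% of the arm. Each form of that start had under 100 reads without oxidation, as stated above. In miR-285-5p the start with C at offset 1 had 1375 and 301 reads, 7.56% and 0.853%, and the start at offset -1 243 and 4739 reads, 1.34% and 13.4%. Of the forms at offset 1, that of 22 nt had 642 reads in the oxidized and 218 in the not oxidized library. Those of 21 and 23 nt had 637 and 96 reads with oxidation but only 70 and 13 without. These 2 forms thus reached the minimum only with their oxidized reads. In miR-210-3p the start with C made a smaller share, 62.9% of the arm with and 74.2% without oxidation, and the start with T at offset 1 made 37.1% and 25.8%.

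**Figure D5:**
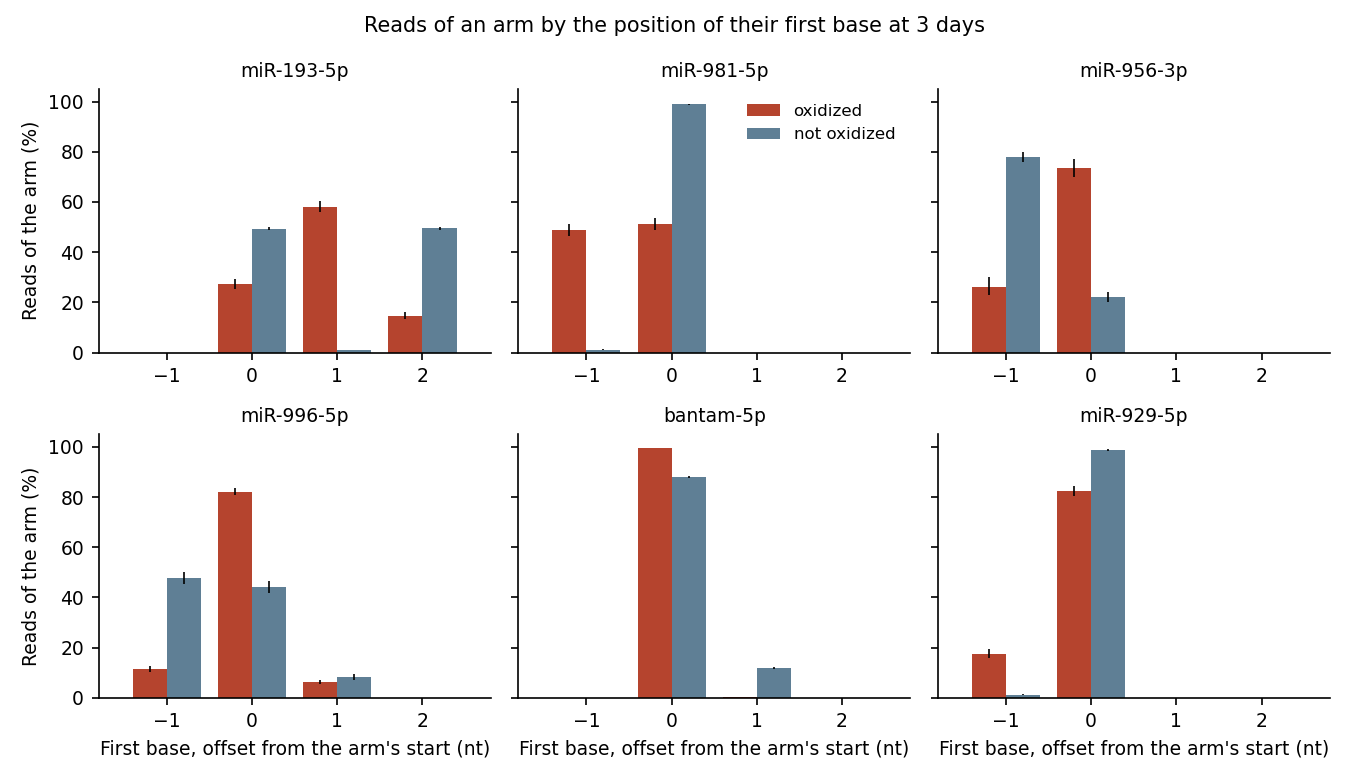
Share of an arm's reads, in %, by the position of the first base against the usual start of the arm, for the oxidized (left bars) and not oxidized (right bars) library; lines are exact 95% intervals for counting error. The start at offset 1 of miR-193-5p (58.2% against 1.05%) and that at offset -1 of miR-981-5p (48.8% against 1.08%) are nearly absent without oxidation, the leading starts of miR-956-3p and miR-996-5p change places, and the start at offset 1 of bantam-5p is smaller with oxidation.

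At the low end, the ratios rest on few oxidized reads. Among sequences with at least 1 oxidized read, the 8 lowest had 1 to 3 reads in the oxidized library: forms of miR-307a-3p, miR-9b-5p, miR-190-5p, miR-14-3p, miR-87-3p, bantam-3p, miR-2c-3p and an arm without a name, with 126 to 360 reads in the not oxidized one. Their log2 ratios ran from -4.90 (-10.21 to -2.41) for the 22-nt form of miR-307a-3p to -3.96 (-6.25 to -2.40) for that of miR-2c-3p with 21 nt. For the 7 sequences at 0 oxidized reads, with 108 to 262 reads without oxidation, the bound of 3 counts gives ratios of at most -2.22 to -3.50, so these may lie below or above the 8.

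The 10 most abundant arms behaved in different ways. miR-284-5p, 21.4-fold higher as a whole, had its 25-nt form at 99349 reads in the oxidized and 28571 in the not oxidized library, 51.5% and 41.1% of the arm, and its 26-nt form at 86577 and 36813 reads, 44.9% and 52.9%. miR-276a-3p, 4.72-fold lower, had its 22-nt form at 87.9% with and 94.8% without oxidation and its 20-nt form at 5.53% and 1.34%. miR-14-3p, 4.56-fold lower, had its 20-nt form at 82.1% and 86.6%, while a 22-nt form that begins with C at offset 1 had 738 reads in the oxidized and 269 in the not oxidized library, a log2 ratio of 4.40. miR-184-3p, 1.41-fold lower, kept its 22-nt form at 82.4% and 80.2%.

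Among 9 arms listed as trimmed by Nibbler, recalled from the literature and certain for miR-34-5p only, 7 could be compared for length. With oxidation 2 were at least 0.25 nt longer, miR-263a-5p and miR-305-5p, and 1 was at least 0.25 nt shorter, miR-34-5p, beside 7.69% longer and 26.9% shorter among the 78 arms. The median difference was 0.18 nt, beside -0.07 nt over the 78 arms. Of 68 sequences of the 9 arms, 19 were at least 2-fold higher and 30 lower, beside 27.3% and 49.9% of all 704. miR-11-3p and miR-10-5p, with differences of 0.21 and 0.18 nt, had larger shares of the 22-nt form with oxidation, 81.0% and 70.4%, against 61.8% and 59.4% without. Of 12 guide arms recalled as loaded into AGO1, 11 were compared, none was longer and 2 were shorter, miR-9a-5p and miR-124-3p, beside 7.69% and 26.9% of the 78, and the median was -0.05 nt. Of 115 sequences of these 12 arms, 16 were at least 2-fold higher and 73 lower, again beside 27.3% and 49.9%. Of 10 passenger strands recalled, without certainty, as loaded into AGO2, 7 were compared, miR-2a-2-5p was longer and miR-276a/b-5p shorter, beside the same 7.69% and 26.9%, and the median was -0.00 nt. Of the 45 sequences of the 10 strands, 35 were at least 2-fold higher and 4 lower, beside the same 27.3% and 49.9%. The lists were chosen with earlier results of these data known, and sequences of the same arm are not independent. The counts thus describe the listed arms only, and loading and trimming were not tested.

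The same sequences were looked up in the pair of 30-day libraries, which share no library with the 3-day pair. Of the 543 sequences past 2-fold at 3 days, 523 had the same direction at 30 days. The share that kept its direction among all 704 sequences is not given here. Whether such agreement is particular to sequences past 2-fold therefore cannot be told. All 6 longer arms were longer at 30 days too, 3 of them by at least 0.25 nt, and 20 of the 21 shorter arms were shorter, 18 by at least 0.25 nt. The 26 steps of at least 8-fold at the 3′ end and the 26 at the 5′ end all had the same direction at 30 days. Of steps past 2-fold, 164 of 179 at the 3′ end and 56 of 63 at the 5′ end did. The shares that kept their direction among all steps and among all arms compared for length are not given either. Whether such agreement is particular to large steps, or to arms past 0.25 nt, therefore cannot be told. Set against their own arm, sequences of 16 to 19 nt had a median of 0.57 at 30 days, beside 0.78 at 3 days. At 16 nt alone the median was 0.08, beside 1.07. The start at offset 1 of miR-193-5p made 80.6% of the arm with and 2.02% without oxidation at 30 days, and the 17-nt form of miR-306-5p 42.5% and 1.05%. For miR-34-5p the 18-nt form made 59.5% with and 46.2% without oxidation at 30 days, and its mean length differed by -0.40 nt, beside -1.16 nt at 3 days. With 1 library per group, whether the ages differ was not tested.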

How the data were processed

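Per the labels, TruSeq small RNA libraries were read on a HiSeq2000. Per the submitters' processing notes, the tools were CASAVA 1.8.2 and Bowtie, with build dm3. For adapter trimming, the tool was not given in the sources used here. For each library the authors deposited 1 table of raw counts, pairing a read sequence with its count. Sequences listed more than once, 65 in the oxidized and 139 in the not oxidized library, always with equal counts, were counted once. Levels are counts per 1000000 of the library's own total. Without molecular identifiers, PCR copies are counted as reads, and the intervals and floors hold for counting error alone.

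An arm joins sequences that match exactly over an overlap of 15 nt or more and span up to 34 nt; sequences over 30 nt were not grouped. Near-identical family members cannot be split with certainty. Arms were named from remembered catalogue sequences or because they pair with a named arm; no reference table of miRNAs was used. The leading form was as long as the annotated arm in 76 of 131 named arms and within 1 nt in 110. By duplex energy (ViennaRNA 2.7.2) the partner ranked first among 159 arms in 33 of 37 hairpins with both arms named, which is partly circular.

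The size threshold was 2-fold. Ratios and shares have exact Clopper-Pearson 95% intervals, those of mean lengths use the normal approximation. The scripts were tested on simulated data. The arms and sequences named are the 8 highest and 8 lowest ratios, the 10 most abundant arms, the 6 largest gains and losses of mean length, the arms with another leading form, with the widest spread or with the largest 5′ shift, and miR-34, miR-277, miR-317, the let-7 complex and bantam; of these the text gives a selection, and others were chosen after their values were seen. Members and lists were chosen with earlier results of these data known. Calculations used Python 3.11.15, pandas 2.3.3, scipy 1.17.1 and, for TMM scaling, edgeR 4.0.16.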

Additional observations from a re-analysis of the deposited data

How the results depend on the processing

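With at least 500 reads per sequence in place of 100, 78 of 395 sequences were at least 2-fold higher and 225 lower. In that setting 7 of 68 arms were split between higher and lower forms. Of its 228 3′ steps, 28 were past 2-fold upward and 51 downward. With the minimum of 100 reads set on the not oxidized library alone, 119 of 618 sequences were higher. In the same setting, chosen for this result after seeing the data, the share of the leading start was smaller in 4 arms and larger in 3. At a length threshold of 0.5 nt, 11 arms were shorter and 5 longer. Another scaling moves every ratio alike: by -0.78 in log2 with TMM (edgeR), which gave 160 higher and 429 lower, by 0.54 with miR-263a-5p out of the totals, which gave 223 and 271, and by -0.04 with median-of-ratios, which gave 190 and 354. Shares, mean lengths and steps do not move with scaling. The median 3′ step ran from -0.23 to -0.32 over the 4 alternatives run for it. The other alternatives, 50 reads as the minimum and repeated lines summed, left each count within 1.5 times. Grouping by overlap alone is the grouping used, so it gave no separate value. No paired analysis was possible because each group has 1 library, and for the same reason no library could be left out. The 3-day oxidized library is the shallowest, and forms with a few reads in it have wide intervals.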
